A study of Mus musculus with 4 samples.

Results

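The genes described here are those of the endoplasmic reticulum (ER) stress response, also called the unfolded protein response. They were chosen by function as a list of 42 gene symbols, of which 41 were found among the 12661 genes of the expression table of the series, and *Derl3* was not analysed here. The list holds ER chaperones, disulfide enzymes, the stress sensors and their transcription factors, the degradation machinery and the translocation channel. The tissue was the outer tissue around the femoral artery of wild type C57BL/6 mice, mainly perivascular adipose tissue (PVAT). All mice were ovariectomized females, 11 weeks old by the labels. The injury group (2 libraries) was taken 48 h after a wire was pushed into the femoral artery, and the sham group (2 libraries) 48 h after a sham operation. The comparison asks how the ER stress genes of PVAT differed between injured and sham-operated arteries.

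The ER is where secreted and membrane proteins enter the secretory pathway, fold and receive disulfide bonds. When unfolded proteins accumulate, the membrane sensors IRE1 (gene *Ern1*), PERK (*Eif2ak3*) and ATF6 (*Atf6*) are released from the chaperone BiP (*Hspa5*). IRE1 splices the *Xbp1* mRNA, PERK phosphorylates the initiation factor eIF2alpha and so favours translation of ATF4, and ATF6 is cut in the Golgi to release a transcription factor. Their targets raise the folding capacity of the ER, send misfolded proteins to the proteasome and, when stress lasts, include the proapoptotic factor CHOP (*Ddit3*). Splicing and phosphorylation were not measured by these data, which give the mRNA of each gene as 1 value per library.

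The deposited values are signed numbers on a log-like scale whose base and zero point are not given in the sources used here, and 23.7% of genes lie on the same side of 0 in all 4 libraries. The text therefore gives differences between libraries of the same gene, compares no levels between genes and gives no fold change. The deposited values themselves run from -2.27 to 6.45 over all genes. How deeply each library was sequenced is unknown, so no counting error or detection limit can be given. The labels do not say that the 2 libraries of a group came from separate animals, so the p-values measure only the spread between these libraries. In bulk tissue, fewer cells of a type and less RNA per cell cannot be told apart.

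Because many genes of the list are classical targets of ATF6, their promoters are shown before the values. ATF6 binds the ER stress response element (ERSE) together with the CCAAT-binding factor NF-Y. The ERSE was searched for as CCAAT and CCACG with 9 bases of any kind between them, on both strands of promoters from 250 bases before to 50 bases after the start site (RefSeq, GRCm38.p6). Of the 42 genes, 35 had a promoter entry, 4 of them under a newer symbol (*Ero1a* for *Ero1l*, *Ero1b* for *Ero1lb*, *Selenok* for *Selk* and *Selenos* for *Vimp*). *Hyou1*, *Manf*, *Atf6*, *Ppp1r15b*, *Derl1*, *Sec61a1* and *Ssr2* had none. The ERSE letters were present in 10 of the 35 genes (28.6%), against 39 of all 32851 promoter entries (0.119%). The 11 matches are shown because the ERSE was found in more genes of the list than the other elements searched for. They are read in the CCAAT to CCACG direction with the fixed letters in capitals.
Hspa5: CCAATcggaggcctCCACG
Hsp90b1, distal: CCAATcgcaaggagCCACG
Hsp90b1, proximal: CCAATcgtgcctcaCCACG
Calr: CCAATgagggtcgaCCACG
Canx: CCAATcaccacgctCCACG
Pdia6: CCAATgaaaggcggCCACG
Ero1lb: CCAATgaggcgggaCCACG
Dnajc3: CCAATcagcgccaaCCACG
Creld2: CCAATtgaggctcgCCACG
Syvn1: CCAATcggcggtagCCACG
Derl3: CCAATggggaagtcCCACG

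The matches began between 44 bases (*Syvn1*) and 212 bases (the distal match of *Hsp90b1*) before the start site. A second element, ERSE-II, was searched for as ATTGG and CCACG with 1 base of any kind between them and was present in *Herpud1* and *Dnajb11*, 2 of the 35 genes, against 12 of all promoter entries (0.0365%). The XBP1-binding core TGACGTGG was in none of the 35 and in 222 of all entries (0.676%). The C/EBP-ATF site TGATGCAA, of the kind that ATF4 binds, was in *Herpud1* alone and in 294 of all entries (0.895%). No match of one motif overlapped a match of another in these genes. A match describes these letters in this window and does not show that a factor binds there.

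The 250 bases before the start site are printed below, 5′ to 3′ on the strand of the gene with the matched letters in capitals, for 5 genes. They are *Ero1lb*, which alone passed the test of injury against sham, *Creld2* and *Hspa5*, which share its element, *Herpud1*, which carries the other elements, and *Sdf2l1*, which has the highest difference among the chaperones and none of the searched letters.
Ero1lb, chr13:12565633-12565882, plus strand: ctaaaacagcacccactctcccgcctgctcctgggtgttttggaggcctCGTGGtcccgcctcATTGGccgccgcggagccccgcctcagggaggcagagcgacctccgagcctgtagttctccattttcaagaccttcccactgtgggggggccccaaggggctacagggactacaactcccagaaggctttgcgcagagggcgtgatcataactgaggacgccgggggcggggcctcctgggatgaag
Creld2, chr15:88819396-88819645, plus strand: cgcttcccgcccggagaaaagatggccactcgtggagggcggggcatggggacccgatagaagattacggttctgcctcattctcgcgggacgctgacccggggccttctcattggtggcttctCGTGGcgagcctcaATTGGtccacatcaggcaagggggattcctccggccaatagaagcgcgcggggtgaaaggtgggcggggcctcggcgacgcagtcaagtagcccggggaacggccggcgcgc
Hspa5, chr2:34771840-34772089, plus strand: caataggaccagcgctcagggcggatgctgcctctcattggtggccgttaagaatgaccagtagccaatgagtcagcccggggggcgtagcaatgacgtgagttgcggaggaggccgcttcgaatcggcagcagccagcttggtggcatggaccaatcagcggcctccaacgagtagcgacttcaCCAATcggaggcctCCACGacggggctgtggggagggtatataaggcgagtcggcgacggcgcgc
Herpud1, chr8:94386179-94386428, plus strand: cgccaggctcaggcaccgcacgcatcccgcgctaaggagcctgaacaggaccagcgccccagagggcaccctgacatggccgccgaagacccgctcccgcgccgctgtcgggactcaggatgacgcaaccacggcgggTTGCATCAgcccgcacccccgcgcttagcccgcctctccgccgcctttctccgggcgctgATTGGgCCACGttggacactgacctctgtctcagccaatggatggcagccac
Sdf2l1, chr16:17132384-17132633, minus strand: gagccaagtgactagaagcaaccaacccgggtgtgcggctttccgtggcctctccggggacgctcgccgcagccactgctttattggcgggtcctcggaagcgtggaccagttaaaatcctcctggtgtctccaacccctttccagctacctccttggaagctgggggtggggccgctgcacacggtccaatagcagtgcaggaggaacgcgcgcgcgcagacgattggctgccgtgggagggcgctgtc

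A single gene of the list, the oxidase gene *Ero1lb*, was higher after injury by limma with Benjamini-Hochberg adjustment over all 12661 genes at a threshold of 0.05, and no gene was lower. That is 1 of 41 genes called, where 7.43% of all genes were called (3.76% higher and 3.67% lower). At an unadjusted p-value under 0.05 there were 6 higher genes of the 41, where 14.8% of all genes passed, and 2 lower genes, where 14.8% passed as well, so that 8 passed in either direction and 29.5% of all genes did. At an adjusted threshold of 0.1, 4 genes were called (*Ero1lb*, *Edem1*, *Ddit3* and *Manf*), where 18.3% of all genes were. The median difference of the 41 genes was 0.18 deposited units, and that of all genes was 0.0085. The mean after injury was above that after sham operation in 30 genes and below it in 11. In 19 genes both injury libraries lay above both sham libraries, where 31.6% of all genes did so, and in 5 genes both lay below, where 30.3% did so. In the other 17 genes the groups overlapped.

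In 35 of the 41 genes (85.4%) the difference was under 0.5 deposited units in size, compared with 75.6% of all genes. The 95% interval of the difference lay within 1 unit on either side of 0 in 36 of the 41 genes (87.8%), compared with 76.9% of all genes. Their standard errors had a median of 0.16, the same as the median of 0.16 over all genes. The 9 measured genes with an ERSE had a median difference of 0.21, and the 25 measured genes with a promoter entry and no ERSE had one of 0.13, given as a description with no test.

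**Figure D1:**
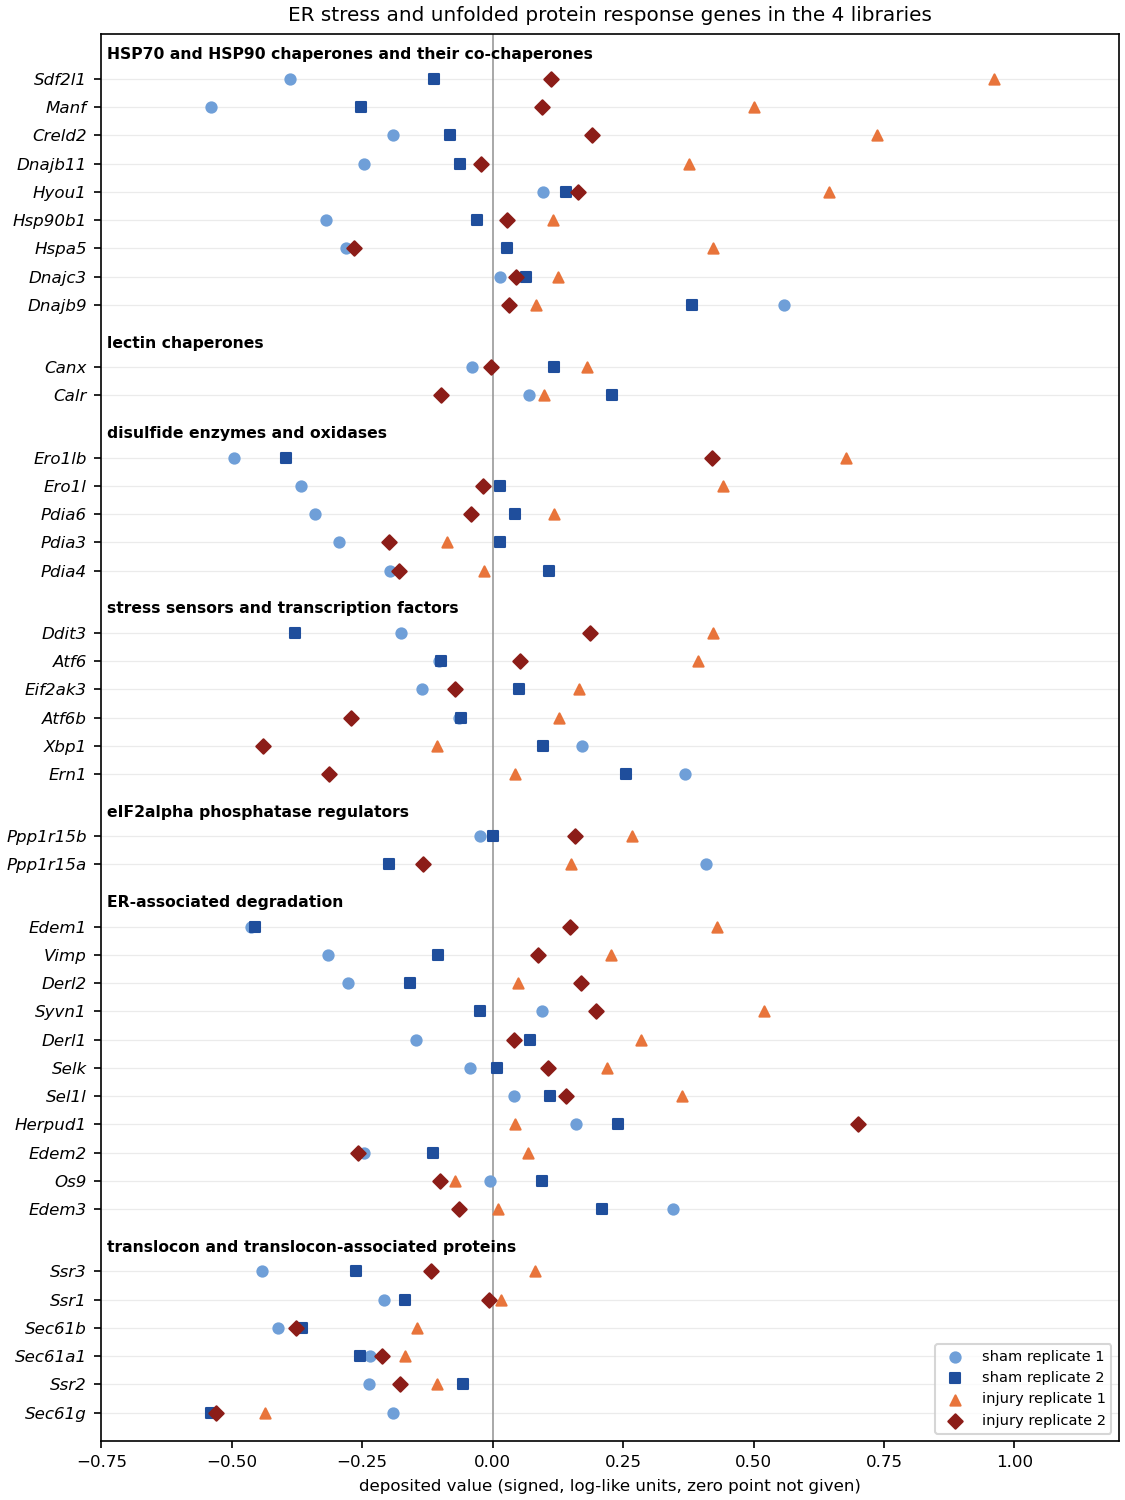
Deposited values (x axis, log-like units, zero point not given) of the 41 genes in the 4 libraries, grouped by role and sorted by difference within each role. The injury libraries of *Ero1lb* (0.68 and 0.42) stand apart from its sham libraries (-0.50 and -0.40), and in 17 of the 41 genes the groups overlap.

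Among the disulfide enzymes, *Ero1lb* stood apart from the other genes of the group. It encodes ERO1-beta, an ER oxidase that passes oxidizing equivalents to protein disulfide isomerases, and lies at chr13:12658150-12701793 in mm9. Its values were -0.50 and -0.40 in the sham libraries and 0.68 and 0.42 in the injury libraries. The groups were separated by more than the spread within either of them. The difference was 0.99 deposited units (standard error, SE, 0.15, 95% interval 0.61 to 1.38, limma adjusted p = 0.0312), a difference exceeded by few genes, since 95.8% of all genes had a lower one. *Ero1lb* lost its call without sham replicate 1 (limma adjusted p = 0.197), without sham replicate 2 (0.127) and without injury replicate 1 (0.0684), and kept it without injury replicate 2 (0.0172). The difference itself stayed at 0.94, 1.04, 0.87 and 1.12 in these fits, which called 0, 1, 284 and 1790 of all 12661 genes. In these fits of 3 libraries the lone library of a group is assumed to vary like the pair of the other group.

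*Ero1l*, which encodes the widely expressed oxidase ERO1-alpha, was at -0.37 and 0.01 after sham operation and at 0.44 and -0.02 after injury. Its groups overlapped because injury replicate 2 lay below sham replicate 2. The difference was 0.39 (SE 0.22, limma adjusted p = 0.309) and ran from 0.16 to 0.62 with each library left out in turn. The protein disulfide isomerases *Pdia3*, *Pdia4* and *Pdia6*, which form and rearrange disulfide bonds in folding proteins, had differences of -0.003, -0.05 and 0.19, and all 3 overlapped between groups. Values of *Pdia4*, the lowest of the group, were -0.20 and 0.11 after sham operation and -0.02 and -0.18 after injury. The interval of its difference ran from -0.47 to 0.36.

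The HSP70 and HSP90 chaperones and their co-chaperones had the highest median difference of any role with more than 2 genes, 0.29 over 9 genes. None of the 9 was called by limma, and at an unadjusted p-value under 0.05 there were 3 higher and 1 lower (14.8% of all genes in each direction). In 6 of the 9 both injury libraries were above both sham libraries, and in 1 both were below, against 31.6% and 30.3% of all genes. *Sdf2l1*, part of the BiP chaperone cycle and located at chr16:17130231-17132476 in mm9, was at -0.39 and -0.11 after sham operation and at 0.96 and 0.11 after injury. Injury replicate 1 was far above the other libraries, and injury replicate 2 was nearer to sham replicate 2 than to its own partner. The difference of 0.79 (SE 0.30, 95% interval 0.04 to 1.54) did not pass the threshold (limma adjusted p = 0.155). Leaving out injury replicate 1 lowered it to 0.36, and leaving out injury replicate 2 raised it to 1.21, where it was called (limma adjusted p = 0.0200).

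*Manf*, a secreted ER-resident trophic factor that binds BiP, was at -0.54 and -0.25 after sham operation and at 0.50 and 0.10 after injury. The groups did not overlap, and the difference was 0.69 (SE 0.20, 95% interval 0.20 to 1.19, limma adjusted p = 0.0910). In the mm9 annotation the span of *Manf* overlaps that of *Rbm15b* on the same strand, so its reads may be partly uncertain. *Creld2*, an ER protein induced by stress, was at -0.19 and -0.08 after sham operation and at 0.74 and 0.19 after injury. Its difference was 0.60 (SE 0.21, limma adjusted p = 0.138). Both genes were called only without injury replicate 2 among the fits run, *Manf* with a difference of 0.90 (limma adjusted p = 0.0440) and *Creld2* with one of 0.87 (limma adjusted p = 0.0318). Their differences without injury replicate 1 were 0.49 and 0.33.

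*Hspa5*, the gene of BiP and the usual index of ER stress, lies at chr2:34627490-34632051 in mm9. It was at -0.28 and 0.03 after sham operation and at 0.42 and -0.27 after injury. Injury replicate 1 was the highest library and injury replicate 2 was nearly as low as sham replicate 1. The difference of 0.21 (SE 0.26) was within the spread between libraries, and its 95% interval ran from -0.45 to 0.86 (limma adjusted p = 0.645). Without injury replicate 1 it was -0.14, and without injury replicate 2 it was 0.55. *Hsp90b1*, the ER paralog of HSP90, had values of -0.32 and -0.03 after sham operation and of 0.12 and 0.03 after injury, a difference of 0.25 with no overlap (0.10 to 0.39 with each library left out in turn). *Hyou1*, a large HSP70 that releases nucleotide from BiP, was at 0.64 in injury replicate 1 and at 0.16 in injury replicate 2. The latter was barely above its sham values of 0.10 and 0.14.

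The J-domain co-chaperones, which stimulate the ATPase of BiP, did not move together. *Dnajb11* had a difference of 0.33 (0.13 to 0.53 with each library left out in turn), with values of -0.25 and -0.06 after sham operation and of 0.38 and -0.02 after injury. *Dnajc3*, which also holds back the eIF2alpha kinases, had a difference of 0.05 (0.006 to 0.086 with each library left out) with a 95% interval from -0.29 to 0.38. *Dnajb9*, a target of spliced XBP1 that dampens IRE1, went the other way, with values of 0.56 and 0.38 after sham operation and of 0.08 and 0.03 after injury. Both of its injury libraries lay below both sham libraries, and the difference of -0.41 (SE 0.14, 95% interval -0.77 to -0.06) did not pass the threshold (limma adjusted p = 0.129). The lectin chaperones *Calr* and *Canx*, which hold glycoproteins in the ER while they fold, overlapped between the groups. *Calr* was at 0.07 and 0.23 after sham operation and at 0.10 and -0.10 after injury, a difference of -0.15 with a 95% interval from -0.53 to 0.23. With each library left out in turn the *Calr* difference ran from -0.25 to -0.051. *Canx* was at -0.04 and 0.12 and at 0.18 and -0.004, a difference of 0.05 with an interval from -0.33 to 0.42.

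**Figure D2:**
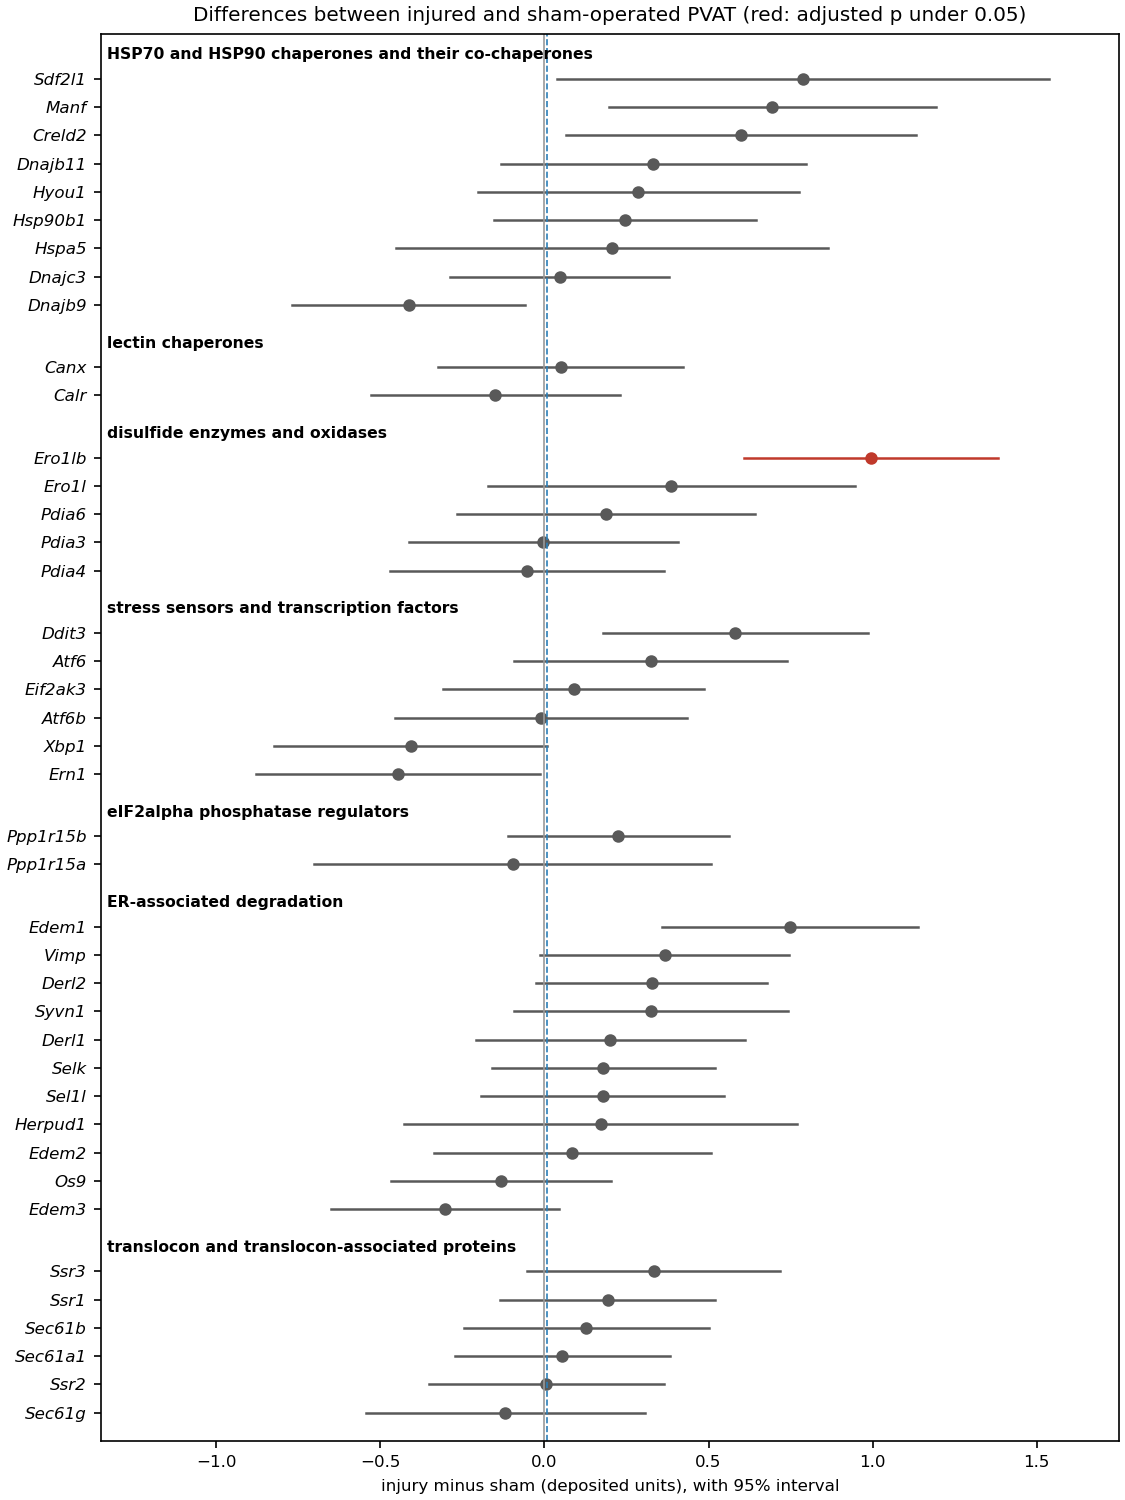
Difference between the injury mean and the sham mean (x axis, deposited units) with its 95% interval from limma for the 41 genes, in red where the adjusted p-value is under 0.05. The dashed line is the median of all genes (0.0085). *Ero1lb* is the only gene in red, and the interval of *Edem1*, whose adjusted p-value was 0.0504, runs from 0.36 to 1.14.

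The sensors and transcription factors went in both directions, 3 with a higher and 3 with a lower mean after injury. None of the 6 was called by limma, where 7.43% of all genes were. At an unadjusted p-value under 0.05 there were 1 higher and 1 lower, where 14.8% of all genes passed in each direction. *Ddit3*, which encodes CHOP and lies at chr10:126727830-126733344 in mm9, was at -0.18 and -0.38 after sham operation and at 0.42 and 0.19 after injury. The groups did not overlap, and the difference was 0.58 (SE 0.16, 95% interval 0.18 to 0.98, limma adjusted p = 0.0851). Leaving out 1 library at a time gave differences from 0.46 to 0.70. The span of *Ddit3* overlaps *Mars* on the other strand.

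*Ern1*, the gene of IRE1 at chr11:106255964-106349166 in mm9, was at 0.37 and 0.26 after sham operation and at 0.04 and -0.31 after injury. The difference was -0.45 (SE 0.17, 95% interval -0.88 to -0.01, limma adjusted p = 0.160). Its substrate *Xbp1* had values of 0.17 and 0.10 after sham operation and of -0.11 and -0.44 after injury, a difference of -0.41 (SE 0.17, limma adjusted p = 0.176). In both genes the injury libraries lay below the sham libraries, with injury replicate 2 the lowest. With each library left out in turn the difference ran from -0.63 to -0.27 for *Ern1* and from -0.57 to -0.24 for *Xbp1*. The other genes with both injury libraries below both sham libraries were *Dnajb9*, *Edem3* and *Os9*.

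*Atf6* was at -0.10 in both sham libraries and at 0.39 and 0.05 after injury. The difference was 0.32 (SE 0.17, limma adjusted p = 0.260) and ran from 0.15 to 0.49 with each library left out in turn. Its paralog *Atf6b* was at -0.06 in both sham libraries and at 0.13 and -0.27 after injury, so that its injury libraries lay on either side of the sham libraries, and the difference was -0.01. *Eif2ak3*, the gene of PERK, had a difference of 0.09 with a 95% interval from -0.31 to 0.49. The phosphatase regulators that reverse eIF2alpha phosphorylation also gave no call by limma, nor did either pass an unadjusted p-value of 0.05. Over all genes 7.43% were called and 29.5% passed. *Ppp1r15a*, the inducible subunit GADD34, was at 0.41 and -0.20 after sham operation and at 0.15 and -0.13 after injury. Its sham libraries differed by more than the groups did, and the difference was -0.10 with a wide 95% interval from -0.70 to 0.51. *Ppp1r15b*, the constitutive subunit, was at -0.02 and -0.0001 after sham operation and at 0.27 and 0.16 after injury, a difference of 0.23 with no overlap (limma adjusted p = 0.326).

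ER-associated degradation extracts misfolded proteins through the HRD1 (*Syvn1*) and SEL1L complex for the proteasome. Of the 11 genes analysed, 6 had both injury libraries above both sham libraries and 2 both below, against 31.6% and 30.3% of all genes. The median difference was 0.18. None was called by limma, where 7.43% of all genes were, and 1 passed an unadjusted p-value of 0.05, where 29.5% did. That gene, *Edem1*, recognises mannose-trimmed glycoproteins and lies at chr6:108778635-108809350 in mm9. Its values were -0.46 in both sham libraries and 0.43 and 0.15 in the injury libraries. The sham libraries lay close together, and both injury libraries stood well above them. The difference was 0.75 (SE 0.16, 95% interval 0.36 to 1.14), and its adjusted p-value of 0.0504 from limma was just above the threshold. After quantile normalization (0.0464) or with columns scaled to one spread (0.0454) *Edem1* passed the threshold of limma, and with a replicate block (0.0711) it did not. With each library left out in turn its difference ran from 0.61 to 0.89.

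The other EDEM genes did not follow *Edem1*. *Edem2* overlapped between the groups with a difference of 0.09. *Edem3* was at 0.35 and 0.21 after sham operation and at 0.01 and -0.06 after injury, a difference of -0.30 (SE 0.14, limma adjusted p = 0.214). *Syvn1*, the ubiquitin ligase, was at 0.09 and -0.03 after sham operation and at 0.52 and 0.20 after injury, a difference of 0.32 (0.16 to 0.49 with each library left out in turn). Its partner *Sel1l* had a difference of 0.18 (0.065 to 0.29 with each library left out), and the lectin *Os9* one of -0.13 (-0.18 to -0.082). The derlins *Derl1* and *Derl2*, membrane proteins of the export channel, had differences of 0.20 (0.079 to 0.32 with each library left out) and 0.33. The selenoprotein genes *Selk* and *Vimp*, which bind the derlins and the ATPase p97, had differences of 0.18 and 0.37, both with no overlap.

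*Herpud1*, which recruits substrates to HRD1, had a pattern unlike the rest. It was at 0.16 and 0.24 after sham operation, at 0.04 in injury replicate 1 and at 0.70 in injury replicate 2. Injury replicate 1 was therefore the lowest and injury replicate 2 the highest of the 4 libraries. The difference of 0.17 (SE 0.24) became -0.16 without injury replicate 2 and 0.50 without injury replicate 1. *Herpud1* was also the only one of the 35 genes with a promoter entry that held the C/EBP-ATF letters. A link between these letters and its values was not tested.

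The translocon genes, which pass new polypeptides into the ER, had the narrowest range of differences of any role with more than 2 genes, from -0.12 to 0.33 with a median of 0.09. None of the 6 was called by limma, where 7.43% of all genes were, and none passed an unadjusted p-value of 0.05, where 29.5% did. *Sec61a1*, the channel-forming subunit, was at -0.23 and -0.25 after sham operation and at -0.17 and -0.21 after injury. Its 95% interval ran from -0.27 to 0.38. *Sec61b* and *Sec61g*, the small subunits, had differences of 0.13 (0.012 to 0.24 with each library left out in turn) and -0.12. *Sec61g* was at -0.19 and -0.54 after sham operation and at -0.44 and -0.53 after injury, so that sham replicate 1 stood apart from the other 3 libraries. Among the translocon-associated proteins, *Ssr3* had the highest difference, 0.33 (SE 0.15, limma adjusted p = 0.218), with values of -0.44 and -0.26 after sham operation and of 0.08 and -0.12 after injury. *Ssr1* and *Ssr2* had differences of 0.19 and 0.005.

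Within the injury group the ER stress genes differed in a single direction. In 39 of the 41 genes (95.1%) injury replicate 1 was higher than injury replicate 2, where 48.9% of all genes were, and the exceptions were *Herpud1* and *Derl2*. The median of this gap was 0.22 over the 41 genes, compared with -0.006 over all genes and 0.18 for the median difference between injury and sham. It was largest for the HSP70 and HSP90 chaperones, with a median of 0.41. In the sham group, replicate 1 was lower than replicate 2 in 32 of the 41 genes (78.0%), compared with 48.4% of all genes, with a median gap of -0.10. Of the other genes of the same pathways, 95 of 139 (68.3%) were lower in sham replicate 1, but not evenly over their lists. They were 30 of 34 other folding enzymes and chaperones (88.2%), 20 of 27 degradation genes (74.1%) and 19 of 26 translocation and N-glycosylation genes (73.1%). In the stress signalling list and in the COPII list they were 13 of 26 each (50.0%). The medians over the 41 genes were -0.19 and -0.02 in the sham libraries and 0.13 and -0.01 in the injury libraries, so injury replicate 2 lay next to sham replicate 2. Without injury replicate 1 the median difference of the list was 0.07, and without injury replicate 2 it was 0.25. Genes of 1 library share its RNA and its scaling, so these counts describe 1 pair of libraries and were not tested.

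**Figure D3:**
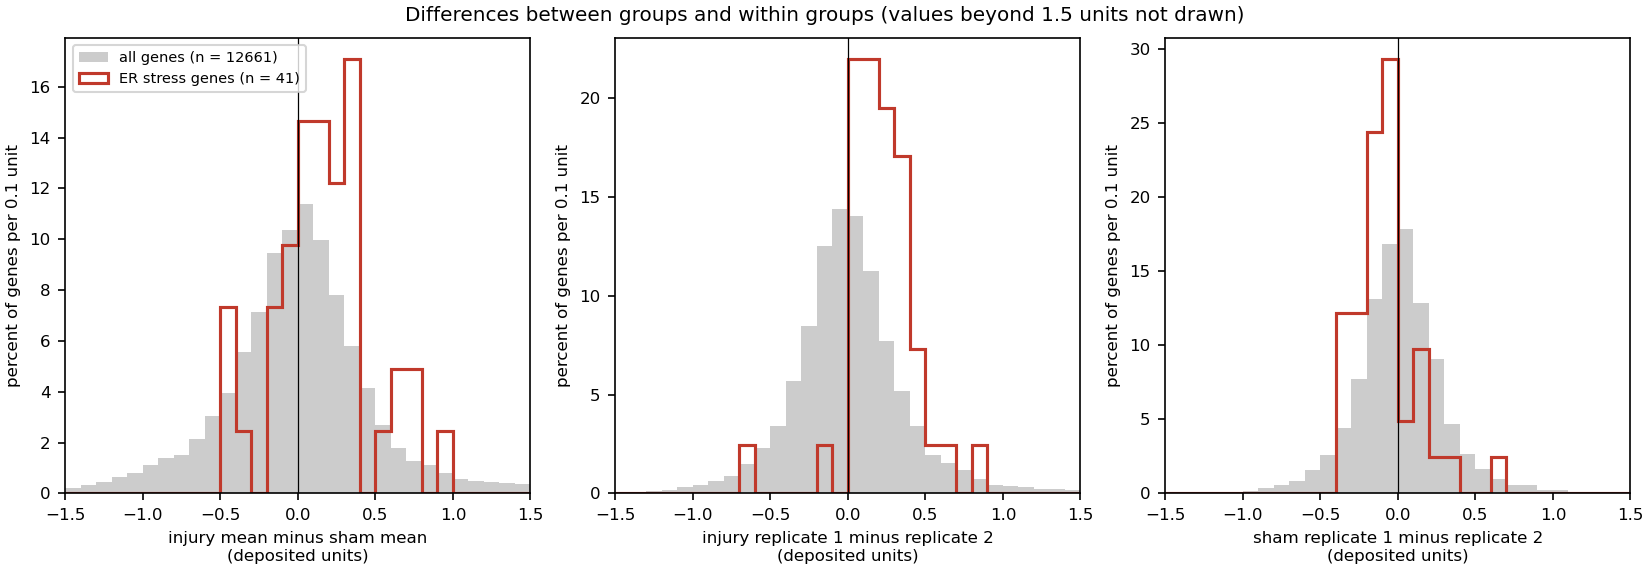
Percent of genes per 0.1 unit (y axis) for the difference between group means and for the gap between the 2 injury libraries and the 2 sham libraries (x axes, deposited units), for all 12661 genes in grey and the 41 ER stress genes in red, with values beyond 1.5 units not drawn. The injury libraries differ in the same direction in 39 of the 41 genes, while all genes are centred near 0.

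Other genes of the same pathways, 139 analysed in 5 lists by function, centred on no difference. Their median difference was 0.006, with 71 above and 68 below 0, and 2 were called higher and 3 lower by limma, where 3.76% and 3.67% of all genes were. Injury replicate 1 was above injury replicate 2 in 54.7% of them. No gene of the 26 for translocation and N-glycosylation or of the 26 for COPII coats and cargo receptors was called by limma. At an unadjusted p-value under 0.05 there were 4 higher in the former list and 1 higher and 1 lower in the latter. Over all genes 14.8% passed in each direction. Among 34 other folding enzymes and chaperones, *Pdia5*, a protein disulfide isomerase that acts on ATF6, fell. Its values were 0.54 and 0.66 after sham operation and -0.46 and -0.84 after injury, a difference of -1.25 (SE 0.18, limma adjusted p = 0.0291). Of 27 other degradation genes, *Fam8a1*, a partner of HRD1, fell by 0.82 (SE 0.15, limma adjusted p = 0.0424), from 0.40 and 0.56 to -0.44 and -0.23.

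Of 26 other stress signalling genes, 2 rose and 1 fell. *Cebpb*, a transcription factor that also pairs with CHOP and whose span overlaps *Tmem189* on the other strand, rose from -0.42 and -0.59 after sham operation to 0.58 and 0.74 after injury, a difference of 1.17 (SE 0.15, limma adjusted p = 0.0285). *Bcl2l11*, the gene of the proapoptotic protein BIM, rose from -0.87 and -0.55 to 1.16 and 0.47, a difference of 1.52 (SE 0.26, limma adjusted p = 0.0368). *Casp12*, a caspase of the ER, fell from 0.17 and 0.32 to -0.72 and -0.92, a difference of -1.06 (SE 0.15, limma adjusted p = 0.0291). All 5 of these genes lost their calls without sham replicate 1, with adjusted p-values from limma of 0.176 for *Pdia5*, *Casp12* and *Cebpb*, 0.199 for *Fam8a1* and 0.212 for *Bcl2l11*, and limma then called 0 of the 12661 genes. Their differences were then -1.31 for *Pdia5*, -1.14 for *Casp12*, 1.25 for *Cebpb*, -0.90 for *Fam8a1* and 1.36 for *Bcl2l11*. They also lost them without sham replicate 2 (0.117 to 0.175), where 1 gene of the whole table was called. *Fam8a1* (0.0999) and *Bcl2l11* (0.0582) lost theirs without injury replicate 1 too.

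Markers of several cell types had medians that lay further apart between the groups than those of the ER stress genes. The 8 macrophage markers analysed, of 9 listed, went from medians of -1.20 and -1.15 after sham operation to medians of 0.59 and -0.14 after injury, and 5 were called higher by limma. The 7 neutrophil markers had medians of -1.34 and -0.97 and of 1.22 and 0.18, and 2 were called higher. *Lcn2* of these, which adipocytes also express, lay the other way, with both injury libraries below both sham libraries (difference -0.97, not called). In all 8 macrophage and all 7 neutrophil markers injury replicate 1 exceeded injury replicate 2, as it did in 39 of the 41 ER stress genes. It did so in 0 of 4 smooth muscle, 1 of 7 fibroblast, 1 of 9 adipocyte and 1 of 5 endothelial markers. The counts were 2 of 5 for brown adipocyte, 2 of 4 for B and plasma cell and 3 of 4 for skeletal muscle markers. The 4 smooth muscle markers analysed, of 5 listed and all called lower, went from medians of 1.73 and 1.12 to medians of -1.56 and -0.25. The 7 fibroblast markers, 4 called lower, had medians of 0.23 and -0.09 and of -0.74 and -0.67.

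The 9 adipocyte markers, with which the tissue label was compared, were all among the genes analysed, and their medians were 0.22 and 0.33 in the sham libraries and -0.19 and 0.28 in the injury libraries, with 1, *Plin1*, called lower by limma. The 5 brown adipocyte markers, 4 called higher, had medians of 0.89 and 1.49 and of 2.23 and 2.24. Endothelial markers, 2 of 5 called lower, had medians of 0.82 and 0.67 and of -0.07 and 0.01, and the 4 skeletal muscle markers analysed, of 6 listed, with no call by limma and 2 lower at an unadjusted p-value under 0.05, had medians of 0.80 and -0.04 and of -0.32 and -0.40. Of 10 markers of B cells and plasma cells, cells rich in ER, 4 were analysed, with medians of 0.16 and -0.05 after sham operation and of -0.49 and 0.30 after injury. *Prdm1* of these was called higher and *Sdc1* lower, while the plasma cell markers *Mzb1* and *Igj* were among those not analysed here. Because the zero point of the values is not given, they show how markers differed between libraries and not how abundant the cells were. The part of these cell types in the differences of the ER stress genes was not tested.

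**Figure D4:**
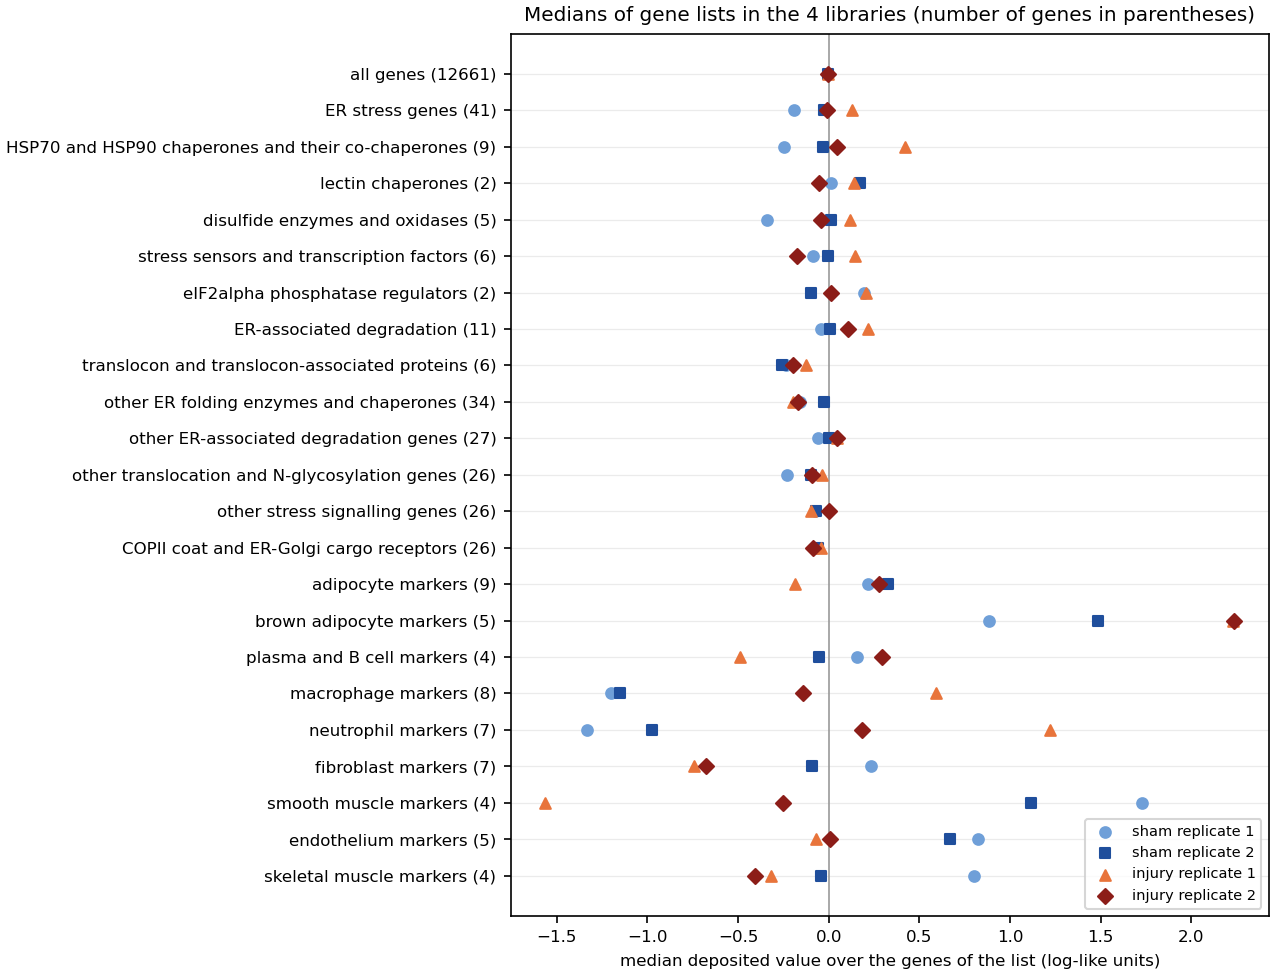
Median deposited value (x axis, log-like units) over the genes of each list in the 4 libraries, for all genes, the ER stress genes and their roles, the other pathway lists and the cell type markers. From library to library the median of the 41 ER stress genes runs from -0.19 to 0.13 and that of the smooth muscle markers from -1.56 to 1.73.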

How the data were processed

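The tissue surrounding the femoral artery gave the RNA, of which 480 ng per library went into a stranded kit for polyadenylated RNA. Per the submitters' processing notes and the methods of the study, the authors checked reads with FastQC 0.11.8, clipped adaptors (cutadapt 1.18) and low-quality bases (Trimmomatic 0.39), mapped to mm9 (STAR 2.6.0a), counted reads per gene (featureCounts) and used DESeq2 1.28.0 in R 3.6.0. The values the authors deposited are not counts but a signed score per gene and library, log-like, of which 50.5% lie below 0 and whose library medians are within 0.0062 of 0. The step from counts to this score, its base, the filter on genes and the strand setting of the counting are not given in the sources used here. Depth is unknown, so the precision rests on 2 libraries per group.

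The 2 injury and 2 sham libraries were compared with limma 3.58.1 in R 4.3.3 (group as the only term, 2 residual and 3.48 prior degrees of freedom), with Benjamini-Hochberg adjustment over 12661 genes, a threshold of 0.05 and no filter on low values. The intervals are 95% intervals from the moderated standard errors. An exact permutation test of 2 against 2 libraries cannot go below p = 0.333. The fit was also run on simulated data, whose outcome is not reported here. No ER stress gene was among the 28 rows that repeat the values of another row.

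The members and all gene lists were chosen with earlier results of these data known. Values in every library are given for the genes called and, in each role, for the genes with the highest and the lowest difference, to which others were added after their values were seen. Of the pathway lists, the genes called are named. Coordinates of genes are from GENCODE for NCBIM37 (mm9), which matched 40 of the 41 symbols. The spans of 7 of them overlap another protein-coding gene. Promoters are from RefSeq (GRCm38.p6), and the builds were not mixed. Alternatives were a threshold of 0.1, a replicate block, each library left out, identical rows counted once, a robust prior for the variance, columns scaled to one spread and quantile normalization. Tables were handled in Python 3.11.15 with pandas 2.3.3, numpy 2.4.6 and scipy 1.17.1, and plots were drawn with matplotlib 3.10.9.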

Additional observations from a re-analysis of the deposited data

How the results depend on the processing

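The number of ER stress genes called by limma was 1, and 2 after quantile normalization or with columns scaled to one spread (*Edem1* joined *Ero1lb*), 4 at a threshold of 0.1 and 0 to 5 with each library left out, where 0 to 1790 of all genes were called. Of the other pathway genes 5 were called, 17 at a threshold of 0.1 and 0 to 8 with each library left out. The median difference of the ER stress genes was 0.065 to 0.25 with each library left out, lowest without injury replicate 1. With a lone library in 1 group, which overlaps less by construction, 28 to 37 of the 41 genes (68.3% to 90.2%) and 77.8% to 84.0% of all genes had no overlap, where with all libraries 24 of the 41 (58.5%) and 61.9% of all genes had none. A block for the replicate number gave calls for 1 ER stress gene and 4 other pathway genes (684 genes of the whole table, in place of 941). Of the 5 other pathway genes 3 kept their calls, *Atf3* gained one, and *Fam8a1* (adjusted p = 0.0533 from limma) and *Bcl2l11* (0.0503) were no longer called. Deviations of same-numbered libraries from their group means correlated at -0.094 across genes. With 2 libraries per group this single correlation cannot decide whether same-numbered libraries shared a batch or a day.

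With a library left out, the difference moved by over 1.5 times or changed sign in 29 of the 41 ER stress genes, 17 of them with no change of sign. *Ssr2* was at -0.0084 after quantile normalization and at -0.0099 with columns scaled to one spread. With each library left out in turn, differences ran from -0.14 to 0.55 for *Hspa5*, from -0.043 to 0.14 for *Canx*, from -0.16 to 0.15 for *Pdia3*, from -0.21 to 0.10 for *Pdia4*, from -0.0048 to 0.38 for *Pdia6*, from -0.029 to 0.21 for *Eif2ak3*, from -0.21 to 0.19 for *Atf6b*, from -0.40 to 0.21 for *Ppp1r15a*, from -0.16 to 0.50 for *Herpud1*, from -0.078 to 0.25 for *Edem2*, from -0.29 to 0.055 for *Sec61g* and from -0.085 to 0.10 for *Ssr2*. The cause was not tested. No other ER stress gene changed sign in the alternatives run.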
